A study of Mus musculus with 98 samples.

Results

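The choroid plexus is a fold of vascular tissue that hangs into the brain ventricles, covered by an epithelium that secretes cerebrospinal fluid. It lies against the hippocampus in the lateral ventricle, so a dissected hippocampus can carry pieces of it. Its epithelial cells make very large amounts of transthyretin, a carrier of thyroid hormone and retinol, and move water, bicarbonate, chloride and folate between blood and fluid. The 10 genes described here were a given list of genes known from this epithelium, read in every library of the series. They were Ttr, Enpp2, Sostdc1 and Kl, whose products are secreted or shed, Folr1, Aqp1, Slc4a5 and Clic6, whose products act in transport, the transcription factor gene Otx2, and Tmem72, which encodes a membrane protein. They were 10 of the 55367 genes listed in each mouse table, and all 10 were also listed in the culture tables, with and without virus. Their level was taken as a measure of choroid plexus in each hippocampal library. In bulk tissue, fewer epithelial cells and less RNA per cell cannot be told apart.

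The series tests higher ACSS2, the enzyme that turns acetate into acetyl-CoA, in hippocampal neurons in culture and in the hippocampus of mice. RNA was sequenced from 98 samples in 22 groups: 55 mouse hippocampi and 43 neuron cultures. The mice had received the adeno-associated virus PhP.eB-upACSS2 or the PhP.eB-vector virus by retro-orbital injection, so the controls carried a virus too. The 24 aged C57BL6 males (12 per virus) were injected with 1.5e11 viral genomes at 21 to 22 months. Their whole hippocampus was taken at 22 to 23 months, 30 minutes after recall of a remote context memory. The 11 C57BL6 males of 10 months (6 upACSS2, 5 vector) received 1.2e11 viral genomes. Their dorsal hippocampus was taken 2 weeks later, 30 minutes after fear conditioning. The 20 PS19 males carry a mutant human tau transgene under the prion protein gene promoter and received 1.5e10 viral genomes at 2.5 months. Their tissue was taken 1 or 6 months later (ages 3.5 and 8.5 to 9 months), 30 minutes after contextual recall, from 5 mice per virus and time. By their labels, the upACSS2 mice at 1 month gave whole hippocampus and all remaining PS19 mice dorsal hippocampus. Virus and tissue thus cannot be told apart at 1 month, nor can time and tissue in the upACSS2 mice. The cultures were embryonic hippocampal neurons of CD1 mice. Those without virus had PBS (n = 3) or tau from human Alzheimer's disease brain (hAD-tau, n = 4) and were read on day 21. The others were infected with an upACSS2 or vector virus on day 5 and given PBS or hAD-tau on day 7, with 3 cultures per group. The infected cultures were read on day 9 or 21, and on day 21 also after stimulation. For several samples the treatment label contradicted the title, and the title was used. These were the PS19 upACSS2 mice at 1 month, replicate 5 of the PS19 vector mice at 1 month, and the neurons with vector and tau or with upACSS2 and PBS.

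Levels are given as CPM, the reads of a gene scaled to a fixed total of assigned reads, and made comparable between libraries of 1 table by the trimmed mean of M-values (TMM). The libraries held 5075099 to 39985460 assigned reads. Acss2 itself lay at 46.6 to 61.4 CPM in the aged upACSS2 mice and 39.9 to 53.6 CPM in the aged vector mice, so those ranges overlapped. In the 10-month mice it was 49.8 to 59.1 CPM with upACSS2 and 42.1 to 48.7 CPM with vector, without overlap. In the PS19 mice at 1 month it was 146, 1188, 317, 60.0 and 1463 CPM in upACSS2 replicates 1 to 5 and 51.4 to 66.3 CPM with vector. At 6 months it was 236, 100.4, 44.9, 55.3 and 110.4 CPM in upACSS2 replicates 1 to 5 and 43.0 to 55.9 CPM with vector. The PS19 libraries labelled upACSS2 replicate 4 at 1 month and replicates 3 and 4 at 6 months thus lay within the vector range of the targeted gene. Some libraries stood apart in the choroid plexus genes: aged upACSS2 replicates 9 and 12 and vector replicate 10, replicate 1 of both 10-month groups, and upACSS2 replicate 1 at 1 month and replicates 1, 2 and 5 at 6 months among the PS19 mice. In the aged mice, replicates 1 to 3 of both groups also stood apart from replicates 4 to 12 along the first principal component, which held 32.8% of the variance. The |r| of that component with Ttr was 0.62 in the aged, 0.86 in the 10-month and 0.37 in the PS19 mice.

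RefSeq promoter sequences (GRCm38.p6) were matched for 5 of the 10 members. Those given here are of Slc4a5 and Aqp1, which had steep slopes on Ttr, and of Kl, which had among the shallowest. The window of Tmem72, whose slope was the steepest, overlaps an annotated UTR and is not shown, and neither are the 4 windows of Otx2. Each is the 250 bases before the annotated start, on the plus strand, and capitals mark GC boxes, the letters GGGCGG or CCGCCC on the other strand. The windows are chr6:83237125-83237374 for Slc4a5, inside the annotated span of the gene, chr6:55336049-55336298 for Aqp1 and chr5:150952357-150952606 for Kl.
Slc4a5: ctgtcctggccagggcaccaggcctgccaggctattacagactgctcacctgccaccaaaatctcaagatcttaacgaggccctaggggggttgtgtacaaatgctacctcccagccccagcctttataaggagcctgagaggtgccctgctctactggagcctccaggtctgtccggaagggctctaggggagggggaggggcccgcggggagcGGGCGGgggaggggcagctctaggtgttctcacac
Aqp1: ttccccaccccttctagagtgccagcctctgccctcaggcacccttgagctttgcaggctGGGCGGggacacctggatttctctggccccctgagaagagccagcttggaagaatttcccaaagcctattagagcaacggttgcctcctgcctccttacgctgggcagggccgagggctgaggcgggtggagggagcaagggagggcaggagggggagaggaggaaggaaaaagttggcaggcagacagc
Kl: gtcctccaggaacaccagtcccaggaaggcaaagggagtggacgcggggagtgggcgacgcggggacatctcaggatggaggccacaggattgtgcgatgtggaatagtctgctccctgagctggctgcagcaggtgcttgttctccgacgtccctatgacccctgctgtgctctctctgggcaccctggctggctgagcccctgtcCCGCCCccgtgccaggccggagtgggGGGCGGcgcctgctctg
The Kl window held 2 GC boxes and the Aqp1 and Slc4a5 windows 1 each. Of all 32851 RefSeq promoter windows of this length, 32.7% held at least 1. The letters bound by OTX proteins, TAATCC or GGATTA, were in none of these 3 windows, in none of Tmem72, in 1 of the 4 Otx2 windows (211 bases before the start) and in 6.25% of all windows. Their shorter core, TAATC or GATTA, stood at 2 places in the Tmem72 window, and 19.8% of all windows held it. A match is a description of the letters only.

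Ttr was the most abundant member per length in each mouse table. Its median was 115 CPM per kilobase of exon in the aged mice, 59.7 in the 10-month mice and 242 in the PS19 mice. Enpp2, which encodes autotaxin, the enzyme that makes lysophosphatidic acid, came next with 43.9, 31.7 and 62.4 CPM per kilobase. On the same scale Kl, whose product klotho is a co-receptor for the hormone FGF23, and Sostdc1, which encodes a secreted antagonist of BMP and Wnt signals, lay between 1.88 and 4.31. Slc4a5, Otx2 and Tmem72 lay below 0.57 in every mouse table. In CPM without regard to length, Enpp2 had the higher median. It was 254, 183 and 361 CPM in the aged, 10-month and PS19 mice, against 136, 70.8 and 287 CPM for Ttr.

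All 10 genes are protein-coding. In the GENCODE annotation of build GRCm38 (mm10), Ttr lies at chr18:20665280-20674321 and Kl at chr5:150952607-150993817. On chromosome 6 lie 3 members, far apart: Aqp1 at chr6:55336432-55348555, Slc4a5 at chr6:83219828-83304945 and Tmem72 at chr6:116679063-116716913. Enpp2 lies at chr15:54838901-54952892, Folr1 at chr7:101858331-101870788, Clic6 at chr16:92485736-92541243, Sostdc1 at chr12:36314139-36318452 and Otx2 at chr14:48657677-48673819.

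Ttr varied widely among mice of the same group. In the aged upACSS2 mice it ran from 5.04 through a median of 96.0 to 1939 CPM, and in the aged vector mice from 30.4 through 177 to 2369 CPM. The 3 highest aged libraries, 1278, 1939 and 2369 CPM, were more than 3 times the next one (357 CPM). Among the 10-month mice, Ttr was 5095 CPM in upACSS2 replicate 1 and 4214 CPM in vector replicate 1, while the other 9 libraries lay at 28.4 to 314 CPM. High libraries thus occurred with both viruses in both C57BL6 cohorts.

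**Figure D1:**
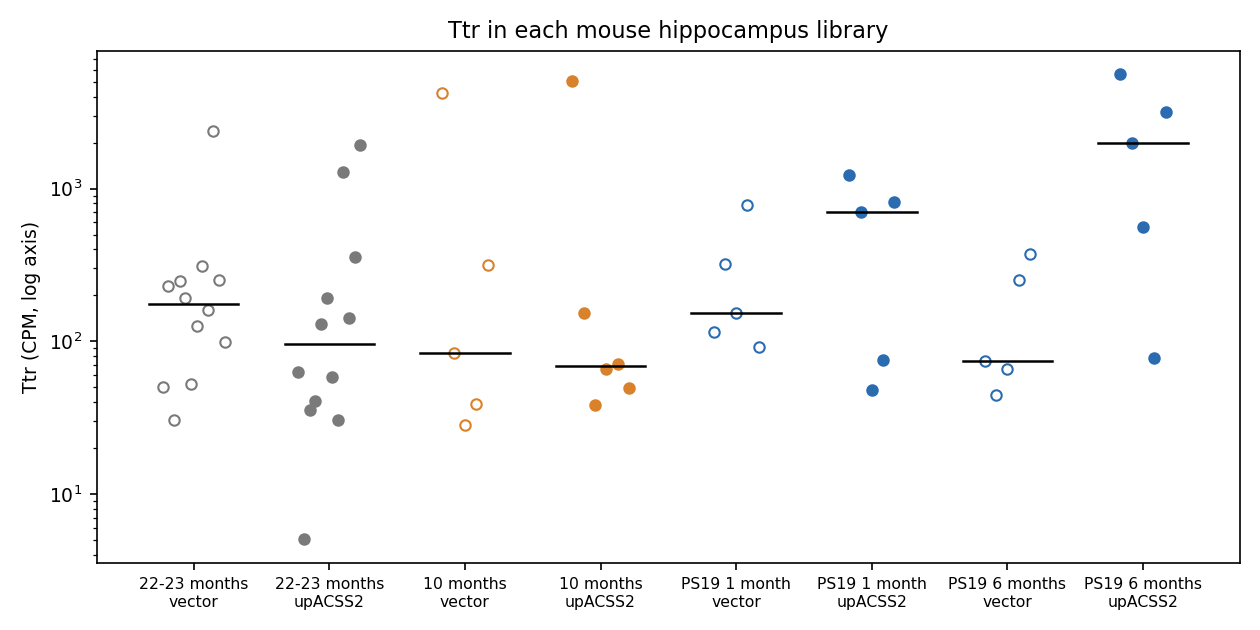
Ttr in each of the 55 mouse hippocampus libraries (CPM, log axis). Each circle is 1 mouse, open for vector and filled for upACSS2, and the bar is the group median; both aged and both 10-month groups have at least 1 mouse more than 10-fold above their median, and the PS19 upACSS2 mice at 6 months have the highest median, 1983 CPM.

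In the PS19 mice the high libraries were not spread evenly over the groups. At 1 month, Ttr was 1232, 702, 48.1, 75.0 and 813 CPM in upACSS2 replicates 1 to 5, and 115, 322, 154, 784 and 92.0 CPM in vector replicates 1 to 5. Those groups overlapped. At 6 months, it was 5620.2, 1983, 560.0, 77.7 and 3157 CPM in upACSS2 replicates 1 to 5, and 74.8, 44.6, 65.9, 252 and 373 CPM in vector replicates 1 to 5. Here 4 of the 5 upACSS2 mice lay above every vector mouse, and replicate 4 lay among them.

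The other 9 genes were high in the same mice. The 3 aged libraries with the highest Ttr were the top 3 for all 10 members, and the 2 such 10-month libraries were the top 2 for all 10. In the PS19 mice, the top 4 libraries for Ttr were also the top 4 for 9 members, Ttr included, and Otx2 shared 3 of them. These numbers of leading libraries were chosen after the values were seen.

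**Figure D2:**
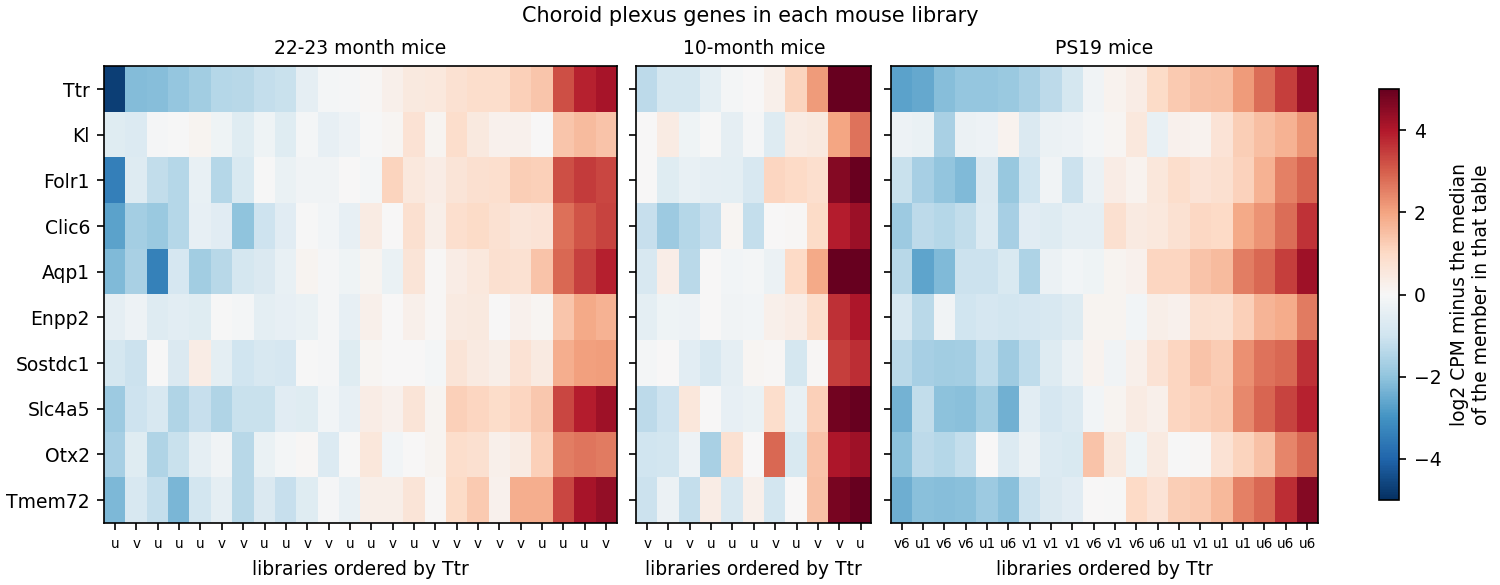
Level of each choroid plexus gene in each mouse library, as log2 CPM minus that gene's median in its table, with libraries ordered by Ttr (u upACSS2, v vector, 1 and 6 the months after injection in PS19 mice). The same libraries at the right end of each panel, 3 aged, 2 at 10 months and 4 PS19, are high for nearly all genes.

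The relation of the other members to Ttr was fitted with edgeR as a slope within groups, in log2 CPM per log2 CPM of Ttr, where 1 means change in proportion. All members that could be tested rose with Ttr at an adjusted p below 0.05. These were 9 of 9 in the aged mice, where 1.65% of all genes tested rose with Ttr, 6 of 6 in the 10-month mice (2.21%) and 9 of 9 in the PS19 mice (0.366%). Aqp1, Slc4a5 and Tmem72 were not tested in the 10-month mice, because too few libraries there held enough reads. In that table the relation rested on the 2 libraries with the highest Ttr: without them Enpp2 alone was called.

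Among the transport genes, Slc4a5 and Aqp1 had the steepest slopes on Ttr. Slc4a5, a sodium bicarbonate cotransporter of the epithelium, ran from 0.153 through a median of 0.841 to 18.1 CPM in the aged mice and from 0.238 through 1.79 to 27.1 CPM in the PS19 mice. Its slope was 0.99 ± 0.03 (SE) in the aged and 0.99 ± 0.06 in the PS19 mice. In the 10-month mice it was 42.3 and 26.7 CPM in replicates 1 of upACSS2 and vector, and at most 1.92 CPM in the other 9 mice.

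Aqp1, the water channel of the apical epithelial membrane, reached 18.5 CPM in the aged, 31.1 CPM in the 10-month and 29.9 CPM in the PS19 mice, against medians of 1.13, 0.415 and 1.50 CPM. Its slope was 0.92 ± 0.04 (SE) in the aged and 0.87 ± 0.06 in the PS19 mice. Aqp1 had no read in 1 aged and 1 10-month library, where the 3 counts that a count of 0 allows are 0.218 and 0.577 CPM.

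Clic6, of the chloride intracellular channel family, and Folr1, which encodes the folate receptor that carries folate into the cerebrospinal fluid, had lower slopes. Clic6 spanned 0.611 to 48.6 CPM in the aged, 1.38 to 115 CPM in the 10-month and 2.49 to 114 CPM in the PS19 mice. Its slopes in the 3 tables were 0.77 ± 0.03, 0.78 ± 0.03 and 0.73 ± 0.04 (SE). Folr1 reached 14.6, 40.3 and 24.0 CPM, with slopes of 0.82 ± 0.04, 0.82 ± 0.04 and 0.68 ± 0.06 (SE).

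**Figure D3:**
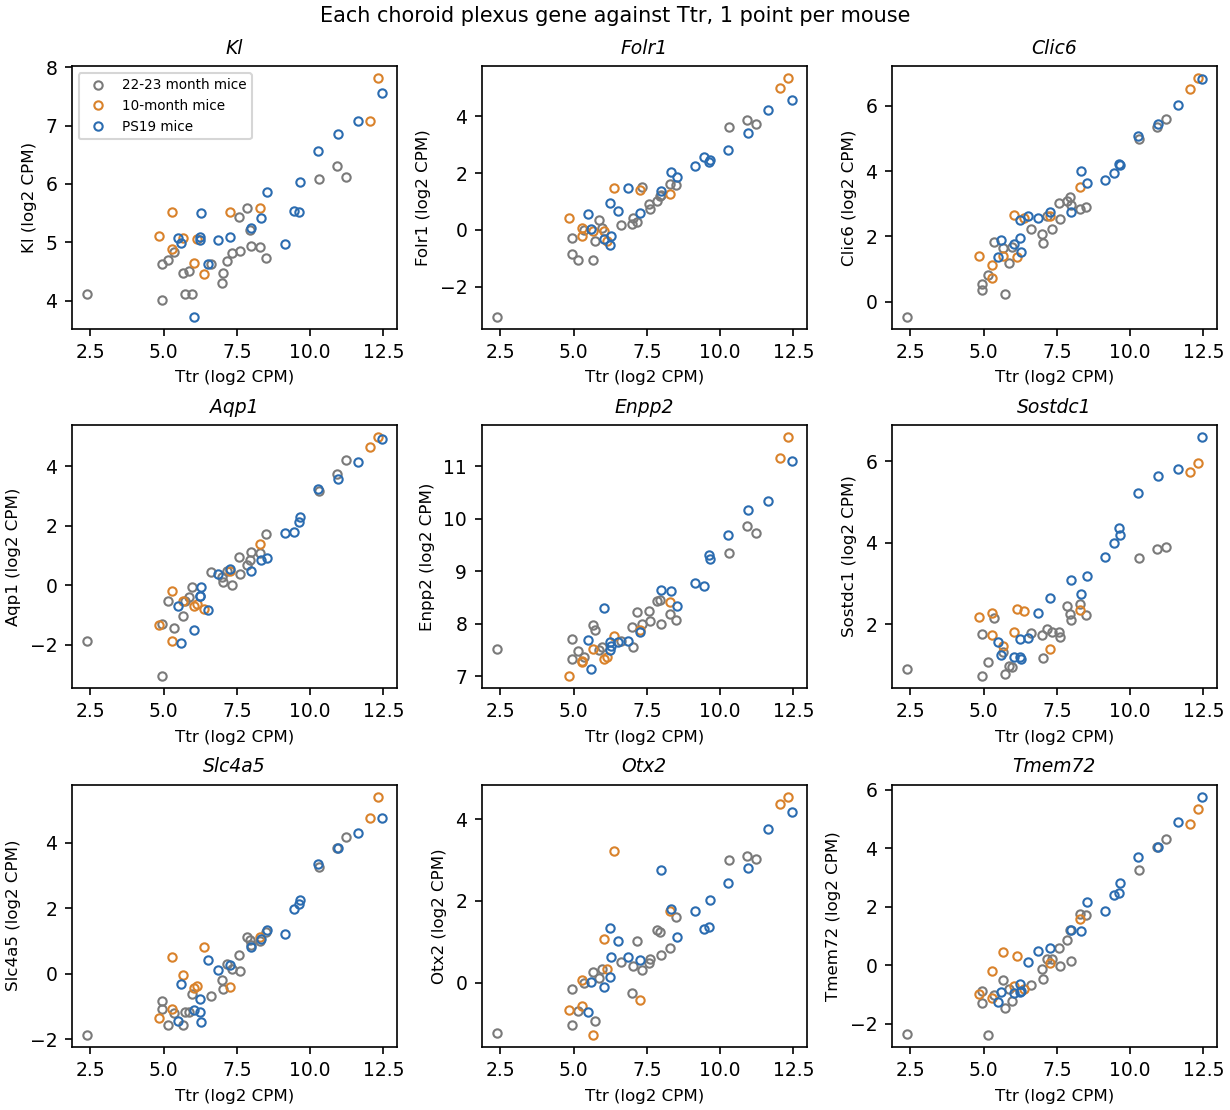
Each of the other 9 genes against Ttr, both in log2 CPM, with 1 point per mouse and a colour for each mouse table. Aqp1, Slc4a5 and Tmem72 follow Ttr over most of its range, while Kl and Enpp2 level off where Ttr is low, and single libraries lie above the rest for Otx2.

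Among the secreted factors, Enpp2 and Kl rose with Ttr with shallower slopes and kept a level where Ttr was low. In the aged mouse with the lowest Ttr (upACSS2 replicate 2, 5.04 CPM), Enpp2 was at 185 CPM and Kl at 17.2 CPM. In the aged mouse with the highest Ttr (vector replicate 10, 2369 CPM) they were at 854 and 69.6 CPM. From one mouse to the other, Ttr differed 470.2-fold, Enpp2 4.63-fold and Kl 4.05-fold.

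Enpp2 slopes were 0.30 ± 0.03 in the aged, 0.60 ± 0.02 in the 10-month and 0.50 ± 0.04 (SE) in the PS19 mice, and its highest levels were 936, 3006 and 2195 CPM. Enpp2 is also an oligodendrocyte gene. With Mbp, the gene of myelin basic protein, added to the fit as a second covariate, a choice made after the values were seen, the Enpp2 slopes on Ttr were 0.30, 0.59 and 0.50. Its slope on Mbp did not pass the test in any table (0.03 ± 0.21, 0.22 ± 0.17 and 0.23 ± 0.17, SE; edgeR adjusted p 0.957, 0.702 and 0.511; 6.47%, 0.411% and 1.12% of genes called).

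Kl had slopes of 0.28 ± 0.03, 0.36 ± 0.03 and 0.32 ± 0.05 (SE) in the aged, 10-month and PS19 mice. Its level ran from 16.1 to 78.7 CPM, 21.8 to 225 CPM and 13.1 to 188 CPM. Sostdc1 was the member whose slope varied most between tables: 0.42 ± 0.04 in the aged, 0.61 ± 0.04 in the 10-month and 0.84 ± 0.04 (SE) in the PS19 mice. It reached 14.9 CPM in the aged mouse with the most Ttr (2369 CPM), and 49.8 CPM in PS19 upACSS2 replicate 2 at 6 months, where Ttr was 1983 CPM. The tables were normalized separately and the difference between their slopes was not tested.

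**Figure D4:**
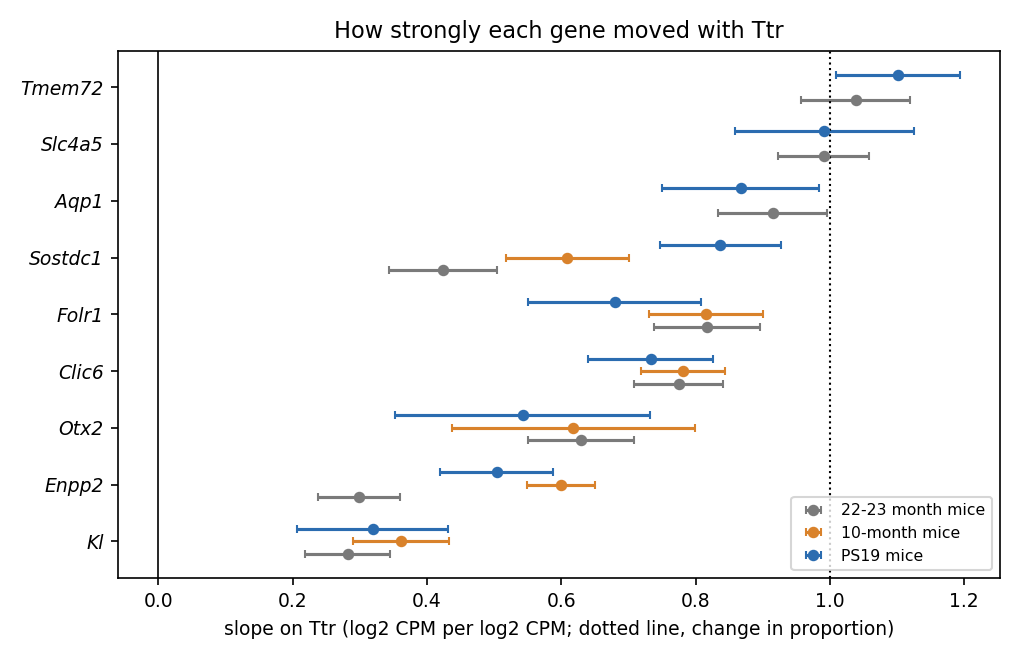
Slope of each gene on Ttr (log2 CPM per log2 CPM) with its 95% confidence interval, by mouse table, from the edgeR fit with group terms. The dotted line marks change in proportion to Ttr; Tmem72 and Slc4a5 lie at it, Kl and Enpp2 lie farthest below it, and Tmem72, Slc4a5 and Aqp1 were not tested in the 10-month mice.

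Tmem72 had the highest slope of the members in the aged and PS19 mice. It ran from 0.0715 through a median of 0.828 to 20.005 CPM in the aged mice and from 0.292 through 2.15 to 54.6 CPM in the PS19 mice, with slopes of 1.04 ± 0.04 and 1.10 ± 0.04 (SE). The interval of the PS19 slope, 1.01 to 1.19, lay just above 1.

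Otx2, a homeobox transcription factor gene that is active in the choroid plexus epithelium, had slopes of 0.63 ± 0.04, 0.62 ± 0.09 and 0.54 ± 0.09 (SE). In single libraries Otx2 was high beside a low Ttr. In the 10-month vector mice, replicate 2 had 9.03 CPM of Otx2 with 83.6 CPM of Ttr, while upACSS2 replicate 5 had 0.981 CPM with 70.8 CPM of Ttr. In the PS19 vector mice at 6 months, replicate 4 had 6.64 CPM with 252 CPM of Ttr, while replicate 5 had 2.05 CPM with 373 CPM.

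Those 2 libraries also had the highest Tcf7l2, a transcription factor gene high in the thalamus. It was 83.2 CPM in the 10-month library, where the others lay at 2.37 to 11.04 CPM, and 62.7 CPM in the PS19 library. PS19 upACSS2 replicate 4 at 1 month came next, with 46.5 CPM of Tcf7l2, 2.41 CPM of Otx2 and 75.0 CPM of Ttr. In a fit of both covariates, chosen after the values were seen, Otx2 rose with Tcf7l2 at 0.88 ± 0.11 (SE; edgeR adjusted p 0.000518; 2.41% of genes called) in the 10-month mice and 0.46 ± 0.07 (adjusted p 0.00163; 0.688%) in the PS19 mice. No other member was called for Tcf7l2 in either table. In the aged mice, where Tcf7l2 did not exceed 14.004 CPM, the Otx2 slope was 0.04 ± 0.15 (SE; edgeR adjusted p 0.9999; 0.0198% of genes called). With Tcf7l2 in the fit, the slope of Otx2 on Ttr was 0.67 ± 0.04 in the 10-month and 0.61 ± 0.05 (SE) in the PS19 mice. The fit was not repeated without the libraries of high Tcf7l2.

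Further genes of the choroid plexus epithelium, 28 in number and none of them members, moved with Ttr as well. Of those that could be tested, 21 of 23 rose with Ttr in the aged mice, 14 of 14 in the 10-month mice and 23 of 28 in the PS19 mice, and none fell. Their median slopes were 0.40, 0.48 and 0.50. The most abundant were Cab39l, Car12, Igfbp2 and Slc29a4. Igfbp2, a secreted binding protein of insulin-like growth factors, had slopes of 0.26, 0.35 and 0.25 and rose with Ttr in all 3 tables, as did Cab39l with slopes of 0.09, 0.25 and 0.14. Car12, a carbonic anhydrase gene, and Slc29a4, a monoamine transporter gene, rose in the 10-month mice only among the 3 tables (slopes 0.19 and 0.12). The summed level of this list lay at 119 to 1070 CPM in the mice. In the cultures it lay at 217 to 745 CPM without virus and 231 to 371 CPM with virus. The sum is thus not particular to choroid plexus. Tissue and cultures were normalized separately.

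Markers of neighbouring cells moved less with Ttr. Of the ependyma list, whose cells line the ventricle with beating cilia, 5 of 9 genes tested rose with Ttr in the aged mice, 8 of 8 in the 10-month mice and 0 of 9 in the PS19 mice. Median slopes were 0.20, 0.22 and 0.08, and Mia had a median of 0. Foxj1, the transcription factor gene of motile cilia, which the choroid plexus shares with the ependyma, had slopes of 0.23, 0.21 and 0.11. The summed ependyma list reached 48.5, 75.2 and 90.0 CPM among upACSS2 mice of the 3 tables and 49.6, 87.5 and 63.7 CPM among vector mice. Of 9 fibroblast genes tested in the 10-month mice, Col1a2 and Ogn rose with Ttr, and of 7 endothelial genes, Slco1a4. No fibroblast or endothelial gene passed in the aged and PS19 mice. No gene of the oligodendrocyte, astrocyte, microglia, red blood cell, thalamus or neuron lists passed the test for Ttr in any table; their part in the members' levels was not tested.

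The genes most like Ttr were ranked by the lowest of their 3 Pearson r with Ttr, each from log2 CPM centred on the group, over the 24, 11 and 20 mice. The ranking held 12673 non-members tested in all 3 tables, with provisional gene names (Gm, Rik and accession-like names) left out. The 12 closest were F5, Prlr, Ecrg4, Drc7, Slc2a12, Col8a2, Lbp, Abca4, Rbm47, Igfbp2, Cdkn1c and Ace. Their lowest r was 0.95 for F5 and 0.77 for Ace. Of the members, Clic6 had a lowest r of 0.97, Folr1 0.94, Sostdc1 0.88, Enpp2 0.87, Otx2 0.84 and Kl 0.79. These points share libraries and their depth, and are a description. Of the 12, F5, Prlr, Ecrg4, Abca4, Rbm47, Igfbp2, Cdkn1c and Ace stand in the list of further epithelial genes. That list was chosen with earlier results of these data known, so the overlap is not independent support.

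Between viruses, no member passed the test in C57BL6 mice. For upACSS2 against vector, edgeR called 0 of 10 members in the aged mice and 0 of 7 tested in the 10-month mice, as DESeq2 did, with 0% of all genes called in each and no member at an unadjusted p below 0.05. The log2 fold change of Ttr was 0.05 ± 0.78 (SE) in the aged and −0.04 ± 1.41 in the 10-month mice. Its mean log2 CPM was 6.76 ± 2.38 (SD, n = 12) with upACSS2 and 7.34 ± 1.62 (n = 12) with vector in the aged mice (two-sided permutation p 0.495, 100000 resamples). The log2 fold change of Ttr was −1.58 within replicates 1 to 3 and 0.14 within replicates 4 to 12, and −0.25 with a term for these sets of replicates. In the 10-month mice each group held 1 of the 2 high libraries. Without vector replicate 1 the log2 fold change of Ttr there was 2.99, and without upACSS2 replicate 1, the other high library, it was strongly negative. Without any 1 of upACSS2 replicates 2 to 6 it lay at 0.19 to 0.22. None of these passed the test.

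In PS19 mice 6 months after injection, the members were higher with upACSS2 than with vector, by an amount that edgeR did not call. The members' median log2 fold change was 3.07, against −0.01 over all genes tested. Aqp1 (3.81 ± 0.90, SE), Ttr (3.81 ± 1.04), Tmem72 (3.69 ± 1.02) and Slc4a5 (3.61 ± 0.95) had the largest values, and Kl (1.55 ± 0.43), Enpp2 (1.89 ± 0.55) and Otx2 (1.96 ± 0.66) the smallest. Sostdc1, Clic6 and Folr1 lay between, at 3.11, 3.04 and 2.71.

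All 10 had an unadjusted p below 0.05, as had 2237 of 15850 genes, but with Benjamini-Hochberg adjustment over all genes 0 members were called (0% of genes called). The adjusted p from edgeR ran from 0.147 for Aqp1 to 0.229 for Otx2. DESeq2 called 7 of the 10 members, all higher with upACSS2 (Ttr, Folr1, Aqp1, Clic6, Sostdc1, Slc4a5 and Tmem72), with 0.743% of genes called. Without the library labelled upACSS2 replicate 4, the mouse with little Ttr, edgeR called 5 members, Folr1, Aqp1, Clic6, Sostdc1 and Slc4a5 (0.493% of genes called). Without the 3 PS19 libraries labelled upACSS2 whose Acss2 lay within the vector range, edgeR called 9 members, all but Otx2, with 0.531% of genes called, and Ttr differed by 4.46 ± 0.90 (SE; adjusted p 0.0270). That fit was chosen after the values were seen, and the 2 libraries it leaves out at 6 months were also those with the least Ttr of their group. Mean log2 CPM of Ttr was 10.09 ± 2.46 (SD, n = 5) with upACSS2 and 6.86 ± 1.33 (n = 5) with vector, with a two-sided exact permutation p of 0.0317 and 0.190 adjusted over 6 comparisons of mouse groups.

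The further epithelial genes differed the same way, with 27 of 28 above 0 and a median log2 fold change of 2.24, though 0 of 28 were called. Among the lists of other cells, 9 of 9 ependyma genes tested were above 0 with a median of 0.54, 6 of 7 endothelial genes with 0.28 and 7 of 11 fibroblast genes with 0.10. The thalamus and habenula list had 2 of 8 above 0 and a median of −0.70, microglia 1 of 5 and −0.31, and astrocytes 0 of 6 and −0.16. No gene of these lists was called, and their part in the members' difference was not tested.

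At 1 month, 0 of 10 members were called by either tool and none had an unadjusted p below 0.05 (0% of genes called). The members' median log2 fold change was 0.70, with 0.97 ± 0.94 (SE) for Ttr. The difference between the virus effects at 6 and 1 months, tested as an interaction, was 2.85 ± 1.34 (SE) in log2 for Ttr, with an edgeR adjusted p of 0.401. Folr1, Clic6, Aqp1 and Ttr had an unadjusted p below 0.05 for it, as had 1956 of 15850 genes, and no member was called by either tool (0% of genes called by edgeR), so that a difference between the times did not pass the test.

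From 1 to 6 months, no member was called in either virus group, by edgeR or DESeq2. In the vector mice 7.46% of genes were called, and Ttr differed by −0.85 ± 0.94 (SE) in log2, with no member at an unadjusted p below 0.05. In the upACSS2 mice 0.0442% of genes were called, Ttr differed by 1.99 ± 0.96, and 7 members had an unadjusted p below 0.05, as had 2166 of 15850 genes. By the labels these upACSS2 mice gave whole hippocampus at 1 month and dorsal hippocampus at 6 months, so that time and tissue cannot be told apart here or in the interaction. The comparisons of the PS19 mice share groups with each other.

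Among the PS19 mice labelled upACSS2 at 6 months, the 3 with the most Ttr (replicates 1, 2 and 5) also had the most Acss2. At 1 month, 3 mice had more Acss2 than replicate 1, which had the most Ttr. Over the 10 upACSS2 mice, centred on their time group, log2 CPM of Acss2 and Ttr had a Pearson r of 0.54 (permutation p 0.112) and a Spearman rho of 0.42 (p 0.233). Leaving out the 2 mice with the most extreme Acss2 gave an r of 0.45. The corresponding values in the 10 vector mice were −0.33 (p 0.377) for r, −0.41 (p 0.273) for rho and −0.45 for r without 2 mice. Adjusted over the 2 groups, the p of r was 0.225 with upACSS2 and 0.377 with vector.

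Cultured neurons held little Ttr. Ttr lay at 0 to 0.572 CPM in 35 of 36 infected cultures and at 3.06 CPM in replicate 3 of the day 21 vector cultures with PBS. In the 7 cultures without virus it lay at 1.44 to 4.72 CPM. Clic6 did not exceed 0.316 CPM, Slc4a5 0.396 CPM and Tmem72 0.128 CPM in any of the 43 cultures, and no read of Tmem72 was found in the 12 stimulated cultures, where a count of 0 allows up to 0.0736 to 0.158 CPM. In the mouse tables, the lowest Ttr of 5.04 CPM was above that of every culture. Tissue and culture tables were normalized separately.

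**Figure D5:**
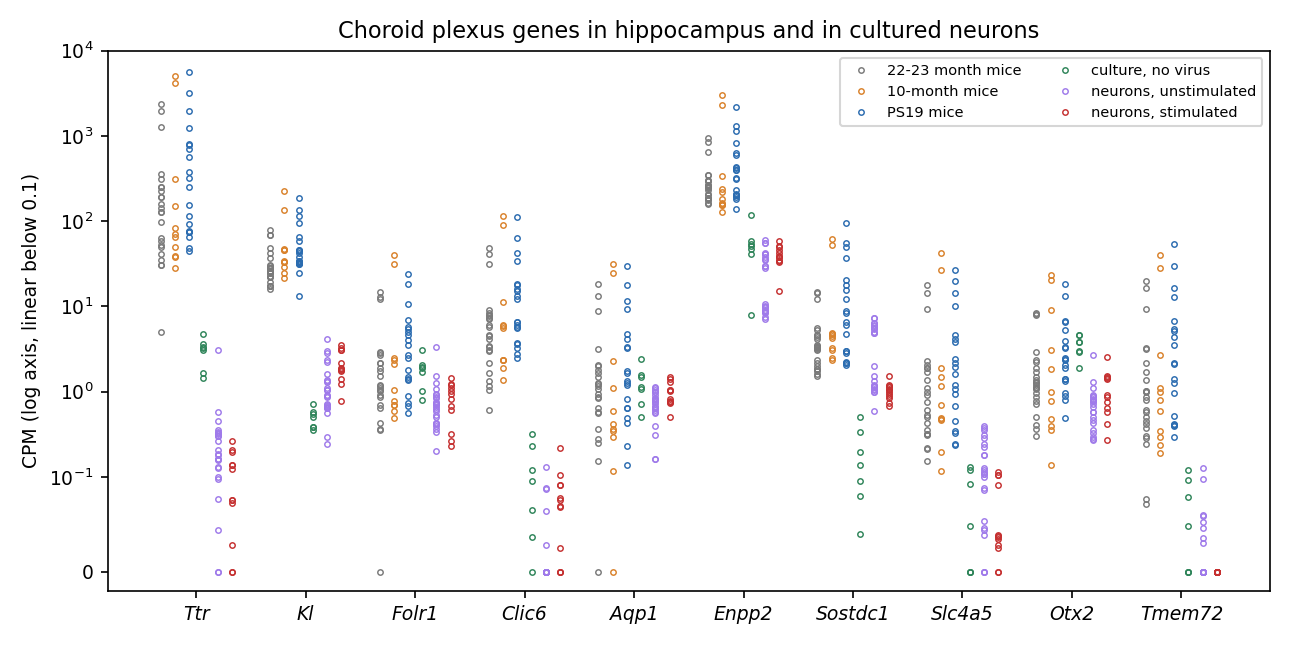
Level of each choroid plexus gene in every library of the 6 tables (CPM; log axis above 0.1 and linear below), 1 circle per library, coloured by table. Ttr lies above 5 CPM in all mouse libraries and below it in all cultures, while Enpp2, Kl, Folr1, Aqp1, Otx2 and Sostdc1 are read in cultures as well.

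The other 6 members were read in cultures as well. Without virus, Otx2 lay at 1.88 to 4.59 CPM, Folr1 at 0.795 to 3.13 CPM and Aqp1 at 0.505 to 2.40 CPM. In the aged, 10-month and PS19 mice, medians were 1.24, 0.981 and 2.38 CPM for Otx2 and 1.18, 1.06 and 3.12 CPM for Folr1. They were 1.13, 0.415 and 1.50 CPM for Aqp1 and 3.36, 4.55 and 7.53 CPM for Sostdc1. Some cultures thus reached the aged and 10-month medians of these members, while Enpp2 and Kl stayed below their lowest mouse levels. On day 9 Enpp2 lay at 7.21 to 10.7 CPM in the 12 infected cultures and on day 21 at 28.1 to 59.9 CPM in the 12 infected cultures without stimulation, with no overlap. It rose from day 9 to day 21 in all 4 conditions, by 2.07 to 2.29 in log2 (edgeR adjusted p at most 1.12e-06). Mbp, the oligodendrocyte gene, lay at 8.602 to 12.2 CPM on day 9 and 42.8 to 245 CPM in the same day 21 cultures, and its part in the rise of Enpp2 was not tested. Sostdc1 went the other way, from 4.85 to 7.30 CPM on day 9 to 0.600 to 2.00 CPM on day 21, and fell by 2.05 to 2.74 in log2 in all 4 conditions. In the 12 stimulated cultures of day 21, from a table normalized separately, Enpp2 lay at 15.04 to 59.3 CPM.

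Without stimulation, Kl lay at 0.241 to 1.05 CPM on day 9 and at 0.886 to 4.14 CPM on day 21. It rose in 3 conditions, by 1.20 ± 0.40 (SE) with PBS and vector, 1.50 ± 0.44 with tau and vector and 2.38 ± 0.38 with tau and upACSS2 (edgeR adjusted p 0.0141, 0.0067 and 2.94e-05). Ttr, Clic6, Slc4a5 and Tmem72 had too few reads to be tested in the infected cultures, and Clic6, Sostdc1, Slc4a5 and Tmem72 in those without virus. These day comparisons called 5 of 6 tested members with PBS and vector, 2 with PBS and upACSS2, 3 with tau and vector and 3 with tau and upACSS2. The share of all genes called was 57.7%, 54.3%, 52.6% and 53.6%, so the counts show nothing particular to the members.

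With PBS and vector, Folr1 (1.88 ± 0.58, SE) and Otx2 (1.20 ± 0.44) were called as well. Replicate 3 of day 21 had 3.31 CPM of Folr1, 2.68 CPM of Otx2 and 3.06 CPM of Ttr, against 0.923 to 0.932, 0.883 to 1.31 and 0.0769 to 0.0981 CPM in replicates 1 and 2. Foxj1 was 46.9 CPM in that culture, against 4.19 and 7.16 CPM in the other two, and the summed ependyma list reached 87.7 CPM there. Without that culture, 3 members were called, Sostdc1, Enpp2 and Kl, and neither Folr1 nor Otx2 was among them (52.7% of genes called). Without day 9 vector replicate 2 in PBS, they were Sostdc1, Folr1 and Enpp2 (51.1%).

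No member was called for upACSS2 against vector or for tau against PBS by edgeR in any culture table. The share of genes called was 0% for tau without virus. For upACSS2 it was 0.0135% on day 9 in PBS, 0.00673% on day 9 in tau and 10.6% on day 21 in PBS. For tau it was 0.00673% with vector and 0% with upACSS2 on day 9. On day 21 it was 0.195% with vector and 0.0538% with upACSS2, and 3.02% and 0.208% after stimulation. At most 3 of 6 tested members had an unadjusted p below 0.05 in any of these comparisons. These 3 were for tau with vector after stimulation, where 3624 of 14939 genes had such a p. Kl came closest, at 1.17 ± 0.35 (SE; edgeR adjusted p 0.0629) for upACSS2 on day 21 in tau, where 3.55% of genes were called. There Kl was 4.14, 3.03 and 2.88 CPM with upACSS2 and 1.30, 0.886 and 2.24 CPM with vector, without overlap. In the stimulated cultures with tau, Kl was 3.09, 2.19 and 3.54 CPM with upACSS2 and 1.84, 1.25 and 1.79 CPM with vector (0.86 ± 0.32, SE; edgeR adjusted p 0.156; 0.937% of genes called). Same-numbered cultures deviated together in that comparison (r 0.11 to 0.36 over 3 pairs), though the labels state no pairing. In a fit of only these groups with the replicate number as a block, Kl was called, with 6.51% of genes. No member was called in a fit of only these groups without the block. In the stimulated cultures with PBS the sign was opposite, at −1.05 ± 0.32 (SE; adjusted p 0.161; 0.208% of genes called). DESeq2 called Kl for upACSS2 on day 21 in tau and for tau with upACSS2 after stimulation, and Otx2 for tau with vector after stimulation, with 5.99%, 3.12% and 10.1% of genes called. Day 21 calls of edgeR moved when 1 culture was left out, in fits where Ttr, not tested otherwise, passed the filter on low counts. Without vector replicate 1 in PBS, Folr1, Otx2 and Ttr were called for upACSS2 in PBS (22.9% of genes) and Otx2 and Ttr for tau with vector (15%). Without vector replicate 2 in PBS, these were Folr1 and Ttr (14.6%) and Ttr (7.29%). Without vector replicate 2 in tau, Folr1, Otx2 and Ttr were called for tau with vector (17.6%), and without vector replicate 3 in tau, Kl for upACSS2 in tau (4.28%). All these fits kept vector replicate 3 in PBS, the culture of raised Foxj1. It held the most Ttr, Folr1 and Otx2 of the 24 cultures without stimulation (3.06, 3.31 and 2.68 CPM). In the others Ttr was at most 0.572 CPM. After stimulation, Otx2 was called for tau with vector without vector replicate 2 in tau (8.53%).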

How the data were processed

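RNA was extracted with Trizol and RNeasy columns and made into libraries with the NEB kit E7490 from 130 ng, per the labels' protocols. The authors deposited 6 tables of counts per gene. The submitters' processing notes name STAR, featureCounts, HTSeq, DESeq2 and mm10, and which step used which, and the strand setting, are not given in the sources used here. In the culture table without virus, 6.13% to 8.74% of reads stood on a row with no gene name and were left out. Each table was filtered and scaled on its own (filterByExpr, TMM), and log2 CPM used a prior count of 2. Tests were edgeR 4.0.16 quasi-likelihood fits over all genes of a table (R 4.3.3, limma 3.58.1), with Benjamini-Hochberg adjustment and a threshold of 0.05. The slope on Ttr used group terms and the log2 CPM of Ttr. DESeq2 1.42.0, RLE scaling, no filter, left-out libraries and the replicate block were alternatives. The edgeR group test and the slope on Ttr were tested on simulated data. In 242 within-group pairs of libraries, counts differed by more than sampling noise (lowest chi-square per gene 2.32). Same-numbered cultures deviated together without virus (r 0.22 to 0.39), and among stimulated cultures for upACSS2 in tau (0.11 to 0.36) and tau with vector (0.12 to 0.33). In the remaining comparisons the lowest r of same-numbered samples was −0.31 to 0.03. Single pairs there did deviate together, with r up to 0.54 (tau with vector on day 21). The members, lists and tests were chosen with earlier results of these data known. All 10 members are named in all tables, and the 12 non-members most like Ttr by the rule given. Whether cultures of a group were independent is not stated, so their p-values may measure technical spread. Limits for counts of 0 cover counting error only.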

Additional observations from a re-analysis of the deposited data

Results flagged for a closer look

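In groups of 4 to 10 samples, the highest or lowest library of a member was compared with the rest of its group by Dixon's gap ratio. Of 70 such checks 13 passed the 95% critical value, where chance gives about 3.5. Most came from 1 mouse: in the 10-month upACSS2 group, replicate 1 was far above the other 5 mice for Ttr (5095 CPM), Enpp2 (3006 CPM), Kl (225 CPM), Clic6 (115 CPM), Sostdc1 (61.5 CPM), Slc4a5 (42.3 CPM), Tmem72 (40.6 CPM), Folr1 (40.3 CPM) and Aqp1 (31.1 CPM). Replicate 1 of the 10-month vector group stood above its group for Sostdc1 (53.3 CPM) and Folr1 (31.9 CPM). In the cultures without virus and with tau, replicate 4 was far above the others for Enpp2 (117 CPM) and replicate 1 far below them for Ttr (1.44 CPM).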

How the results depend on the processing

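Across alternatives, 283 counts of members called, 50 counts of members moving with Ttr, 74 log2 fold changes of Ttr and 12 differences of its mean log2 CPM kept their direction and their side of the threshold. The log2 fold change of Ttr for upACSS2 in the aged mice turned from 0.05 to −0.52 with the replicate block, −1.58 in replicates 1 to 3 alone and −0.25 with a term for those replicates. In the 10-month mice it turned from −0.04 to 0.059 with the replicate block. With 1 library left out it lay at −3.63 (without upACSS2 replicate 1) to 2.99 (without vector replicate 1). It was 0.19, 0.21, 0.21, 0.21 and 0.22 without upACSS2 replicates 2 to 6 in turn. None passed the test. In the PS19 mice at 6 months, DESeq2 gave 3.82 for Ttr (adjusted p 0.0185) and called 7 members in place of 0, and leaving out the 3 libraries labelled upACSS2 with Acss2 in the vector range gave 4.46 (adjusted p 0.0270) and 9 members. With 1 library left out, 0 to 5 members were called there, 0 to 3 for upACSS2 on day 21 in PBS, 0 to 3 for tau with vector on day 21, 0 to 1 for upACSS2 on day 21 in tau and 0 to 1 for tau with vector after stimulation. Day 21 against day 9 with PBS and vector gave 3 to 6, 3 without the culture of raised Foxj1, and 3 when only those groups were fitted. The share of all genes called was 52.7% without that culture and 44.9% with only those groups, against 57.7% in the main fit. DESeq2 called 1 member each for upACSS2 on day 21 in tau and for tau with vector and with upACSS2 after stimulation. With the replicate block in a fit of only the groups compared, 1 member was called for upACSS2 in tau after stimulation, against 0 in that fit without the block, and the block moved no other count of calls by more than 1.5 times. Without the 2 libraries farthest from the median Ttr, 1 of 6 members moved with Ttr in the 10-month mice. The cause of these changes was not tested. Ttr was very high in single mice, and its differences between viruses carry standard errors of 0.78 to 1.41 in log2, also with 12 libraries a group.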
